A study of Homo sapiens with 21 samples.

Results

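Notch signalling genes were 10 of the 58735 genes measured. They were chosen by gene symbol and fall into 4 ligands (DLL1, DLL4, JAG1 and JAG2), 3 receptors (NOTCH1, NOTCH2 and NOTCH3) and 3 transcriptional targets (HES1, HES4 and HEY1). The report gives their mRNA levels in all 7 treatment groups and the tests between them.

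Notch is a receptor that is switched on by contact between neighbouring cells. A Delta-like (DLL) or Jagged (JAG) ligand on 1 cell pulls on the receptor of the next, the receptor is cut by an ADAM protease and then by gamma-secretase, and the freed intracellular domain enters the nucleus and joins the DNA-binding protein CSL (gene RBPJ) and a Mastermind coactivator. The complex turns on genes of the HES and HEY families, which encode basic helix-loop-helix repressors. Fringe enzymes such as LFNG add sugars to the receptor and shift its preference between Delta-like and Jagged ligands. In the mammary gland Notch signalling takes part in luminal cell fate, and in cells of many kinds a ligand can also block the receptors of its own cell.

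Poly-A RNA of MDA-MB-453, a cultured human breast cancer line, was sequenced in 21 libraries, 3 in each of 7 groups, to ask which genes respond to calcium and cadmium through estrogen-related receptor beta (ESRRB). The groups were a control with no treatment, calcium (10 mM), cadmium (10 μM), GSK4716 (5 μM, an ESRRB agonist), diethylstilbestrol or DES (10 μM, an ESRRB antagonist and synthetic estrogen), DES+calcium and DES+cadmium at the same doses. Treatment lasted 24 h, and in the combined groups DES was given 3 h before the metal. All groups carried the same unmodified cell line, GSK4716 and DES were dissolved in ethanol, the medium was without serum for calcium and GSK4716 and held charcoal-stripped serum for cadmium. The medium and vehicle of the control are not given in the sources used here, so a treatment and its medium or vehicle cannot be told apart in any comparison with the control.

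The values are FPKM, a fragment count scaled by gene length and by library size, which allows levels to be compared between genes. Each library had between 14435925 and 28424805 fragments on genes. The number of genes with at least 1 fragment ranged from 16605 in DES+cadmium replicate 1 to 35112 in DES replicate 3. All 10 luminal epithelial markers checked (EPCAM, KRT8, ERBB2 and others) were at 1 FPKM or more in every library. All 5 endothelial markers, the defining genes of the cell type best known for DLL4, were at most 0.218 FPKM in any library. Their sum was 0.0155 to 0.0564 FPKM in control, 0 to 0.0265 FPKM in calcium and 0.0292 to 0.615 FPKM in DES, and overlapped control in every group. Of 3 other lists of 5 markers each (basal epithelial, fibroblast and leukocyte), COL1A1 was the 1 gene at 1 FPKM or more in every library. The sum of the luminal markers was 1495 to 1865 FPKM in control and 2567 to 3530 FPKM in calcium, and overlapped control in the other groups. The basal sum was 0.116 to 0.284 FPKM in control and higher without overlap in calcium (0.403 to 0.853 FPKM) and cadmium (0.792 to 1.85 FPKM). The fibroblast sum, nearly all COL1A1, was 10.5 to 12.03 FPKM in control and higher without overlap in calcium (14.02 to 17.2 FPKM) and DES (12.5 to 32.8 FPKM). The leukocyte sum was 0 to 0.13 FPKM in control and higher without overlap in DES (0.161 to 1.09 FPKM), DES+calcium (0.37 to 0.872 FPKM) and DES+cadmium (0.166 to 0.227 FPKM). The part of these markers in the differences of the Notch genes was not tested. Nothing in the sources says that the replicates were separate cultures, so the p-values measure only the spread between these libraries, and a change in RNA per cell cannot be told apart from a change in the number of cells that make it.

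Of the 10 genes, 9 had a mean of at least 0.5 FPKM over the 21 libraries and entered the test. HEY1 did not, with a mean of 0.228 FPKM, so at most 9 of the 10 could be called in a comparison, while shares of all genes are over the 14686 tested. In control cells HES4 was the most abundant of them at 96.5 ± 6.93 FPKM (SD, n = 3), followed by NOTCH3 at 38.3 ± 2.95 FPKM, JAG2 at 31.4 ± 2.59 FPKM and HES1 at 30.2 ± 12.1 FPKM. NOTCH2 was at 14.3 ± 2.57 FPKM, DLL1 at 8.64 ± 0.798 FPKM and NOTCH1 at 8.18 ± 0.101 FPKM. JAG1 (3.43 ± 0.602 FPKM) and DLL4 (0.550 ± 0.167 FPKM) were the scarce ligands. NOTCH3 was thus the leading receptor and JAG2 the leading ligand by mRNA in untreated cells. The fourth receptor, NOTCH4, and the ligand DLL3 were near the floor, with means over all libraries of 0.0448 and 0.0359 FPKM.

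**Figure D1:**
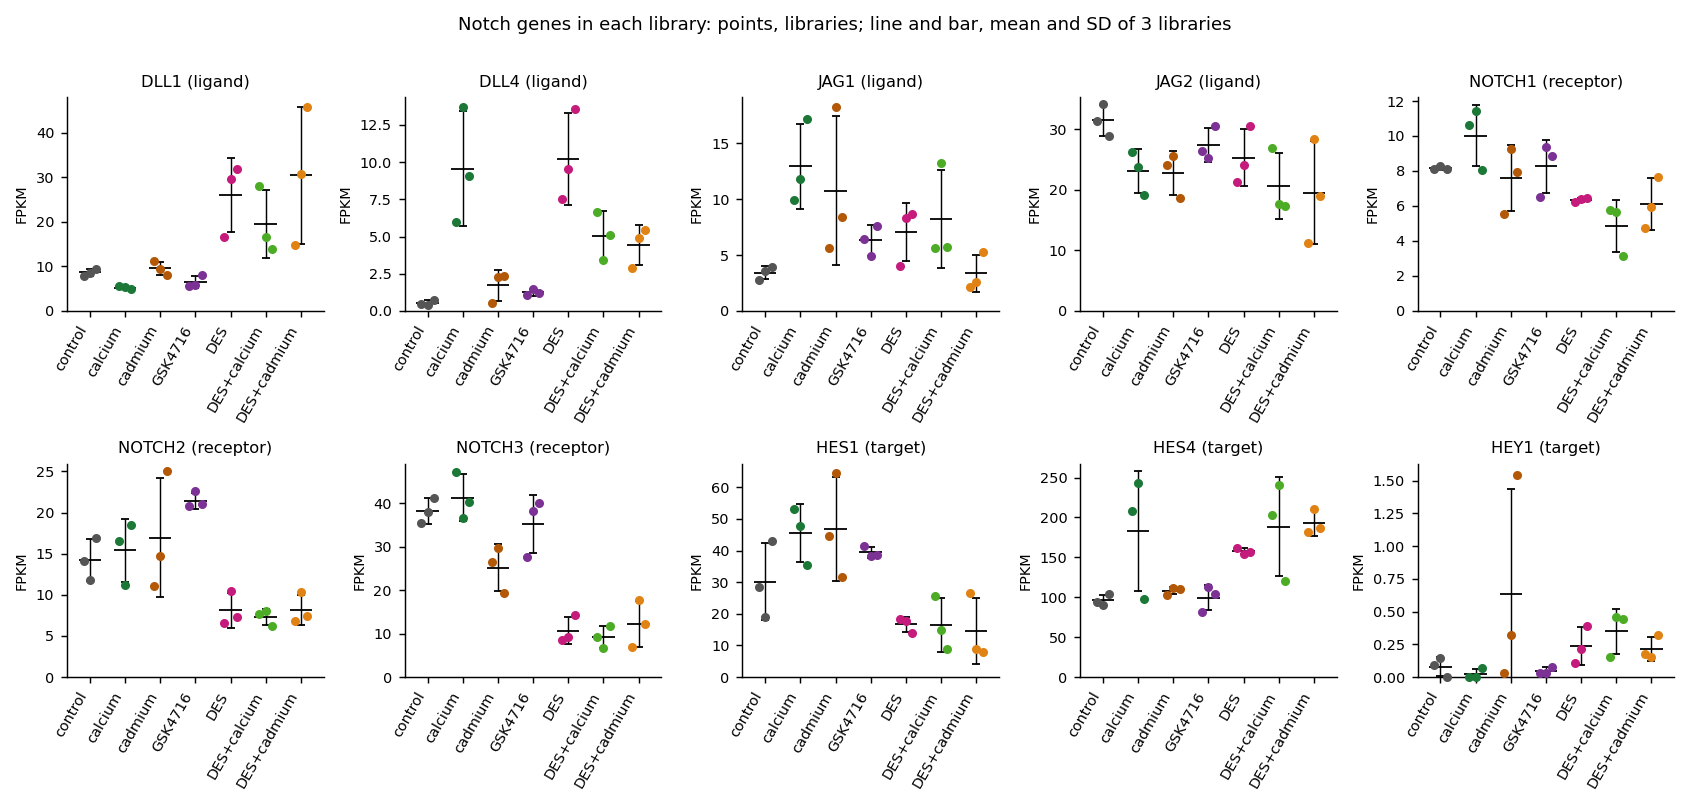
FPKM of each Notch gene (y axis, linear from 0, own scale per gene) in the 7 groups (x axis), with 1 point per library and the mean ± SD of 3 libraries. DLL4 is at 0.418 to 0.737 FPKM in control and 5.95 to 13.7 FPKM in calcium, while NOTCH3 is at 35.4 to 41.3 FPKM in control and 8.49 to 14.3 FPKM in DES.

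The promoters of 8 of the 10 genes were matched in RefSeq (GRCh38.p14), and 250 bases before the start site were searched on both strands for 5 short motifs. The first was the CSL core TGGGAA, held by 20.8% of the 35116 promoters of that length. The others were the extended ESRRB element TNAAGGTCA (0.854% of promoters), its core AAGGTCA (3.44%, which contains every extended element), the AP-1 site TGANTCA (6.57%) and the N-box CACNAG, a site of HES repressors (32.0%). The promoters shown are those of 4 genes, picked because their genes carry the largest differences or the pathway's own motif: the 2 measured targets HES1 and HES4, the ligand DLL4 and the receptor NOTCH3. Capitals mark the CSL core. Each is written 5′ to 3′ along the gene.
HES1, chr3:194135898-194136147, plus strand: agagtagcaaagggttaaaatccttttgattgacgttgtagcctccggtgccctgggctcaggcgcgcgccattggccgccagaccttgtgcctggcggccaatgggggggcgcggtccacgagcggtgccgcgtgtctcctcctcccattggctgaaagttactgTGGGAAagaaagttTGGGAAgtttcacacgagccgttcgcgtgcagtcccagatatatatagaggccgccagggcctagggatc
HES4, chr1:1000098-1000347, minus strand: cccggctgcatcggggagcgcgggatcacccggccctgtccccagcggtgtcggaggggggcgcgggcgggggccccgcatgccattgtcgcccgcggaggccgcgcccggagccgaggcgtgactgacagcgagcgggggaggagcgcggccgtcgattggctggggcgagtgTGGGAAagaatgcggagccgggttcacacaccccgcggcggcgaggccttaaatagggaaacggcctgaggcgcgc
DLL4, chr15:40929090-40929339, plus strand: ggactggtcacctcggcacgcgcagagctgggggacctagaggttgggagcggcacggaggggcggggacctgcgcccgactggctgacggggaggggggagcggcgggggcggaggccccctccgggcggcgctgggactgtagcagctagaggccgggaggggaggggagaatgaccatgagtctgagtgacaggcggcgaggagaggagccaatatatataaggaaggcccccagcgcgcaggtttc
NOTCH3, chr19:15200996-15201245, minus strand: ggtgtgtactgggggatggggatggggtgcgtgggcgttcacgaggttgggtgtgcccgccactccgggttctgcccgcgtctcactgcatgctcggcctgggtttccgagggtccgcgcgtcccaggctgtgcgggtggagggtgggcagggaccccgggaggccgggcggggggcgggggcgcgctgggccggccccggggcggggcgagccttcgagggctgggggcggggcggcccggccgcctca
HES1 held the CSL core at 2 places, at bases -84 to -79 and -70 to -65 from the start site, and 3 N-boxes. HES4 held 1 CSL core, at bases -76 to -71. The NOTCH3 window held 1 N-box and DLL4 none of the 5 motifs, nor did JAG1, JAG2, NOTCH1 or NOTCH2. No promoter of the 8 held either form of the ESRRB element in these bases. A match describes the letters only, and enhancers outside the window were not searched.

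In calcium the Notch genes called were all ligands, and the ligands were not tested against the receptors. DLL4 rose about 14.4-fold, JAG1 rose 3.64-fold and DLL1 fell to 0.613 of its control level, all on the scale of FPKM + 0.1. These 3 of the 10 genes passed the test in calcium versus control, against 7.12% of the 14686 genes tested (4.6% higher and 2.53% lower). No receptor and no target passed it.

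DLL4 (ENSG00000128917, chromosome 15, 40929333 to 40939073, plus strand, GRCh38) encodes a Delta-like ligand. It was at 0.494, 0.418 and 0.737 FPKM in the 3 control libraries and at 5.95, 13.7 and 9.08 FPKM in calcium. Every calcium library was far above every control library, and the control values rest on 42 to 76 fragments per library. The log2 difference was 3.85 ± 0.36 (SE, limma adjusted p = 0.00951). The call was kept in 7 of 8 alternative settings and in 4 of 6 fits without 1 library. Over the 8 settings the log2 difference ranged from 2.71 to 4.09. The call was lost without control replicate 1 or control replicate 2, with limma adjusted p up to 0.0564. The log2 difference was no smaller than 3.55 in any of the 6 fits. DLL4 was also on the study's own list of genes raised by calcium, cadmium and GSK4716, drawn from these libraries, so its place there is not independent evidence. The study's methods name tools for read counts, and in the test used here DLL4 was not called for cadmium or GSK4716.

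JAG1 (ENSG00000101384, chromosome 20, 10637684 to 10673999, minus strand), a Jagged ligand, was at 2.75, 3.61 and 3.91 FPKM in control and 9.89, 11.8 and 17.2 FPKM in calcium. The groups did not overlap, and 29.6% of the genes tested had groups that did not overlap in this comparison. Its log2 difference from control was 1.86 ± 0.25 (SE, limma adjusted p = 0.0166). It was called in 3 of 6 fits without 1 library, the calls being lost without control replicate 1, control replicate 2 or calcium replicate 2, with limma adjusted p up to 0.0756.

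DLL1 (ENSG00000198719, chromosome 6, 170282206 to 170306565, minus strand), the other Delta-like ligand, went the opposite way. It was at 7.88, 8.55 and 9.47 FPKM in control and 5.53, 5.27 and 4.96 FPKM in calcium. DLL1 thus had a log2 difference of -0.71 ± 0.13 (SE, limma adjusted p = 0.0323), and this call was lost in each of the 6 fits without 1 library, with limma adjusted p from 0.0541 to 0.13. DLL1 overlaps FAM120B on the opposite strand over 15863 bases, and the sources do not settle whether the counting used strand, so reads of the overlap may be shared.

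JAG2 (chromosome 14, 105140981 to 105168824, minus strand) was at 31.3, 34.1 and 28.9 FPKM in control and 26.2, 23.8 and 19.1 FPKM in calcium. All 3 calcium libraries were lower, but the test was not passed (log2 difference -0.46 ± 0.15, limma adjusted p = 0.133). As a share of the 4 ligands' FPKM, JAG2 made up 71.3% ± 3.63 (SD, n = 3) in control and 45.6% ± 8.75 in calcium. DLL4 made up 1.26% ± 0.418 and 18.6% ± 6.32, and JAG1 7.77% ± 1.31 and 25.5% ± 7.49. The sum of the ligands was 44.0 ± 2.28 FPKM in control and 50.8 ± 3.48 FPKM in calcium, so the mixture shifted more than its total.

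**Figure D2:**
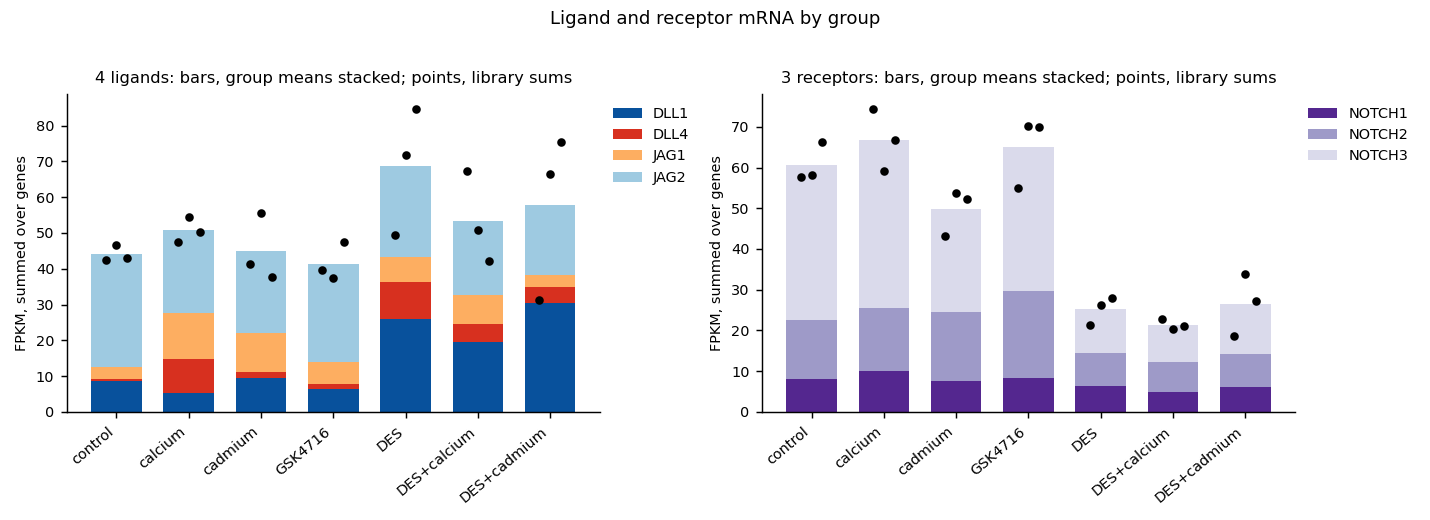
Summed FPKM of the 4 ligands (left) and the 3 receptors (right) in each group, with bars stacking the group means of single genes and points giving the sum in each library. The receptor sum is 60.7 ± 4.85 FPKM in control and 25.1 ± 3.52 FPKM in DES, and the DLL4 layer is 1.26% of the ligand sum in control and 18.6% in calcium.

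Receptors and targets overlapped between calcium and control. NOTCH3 was at 47.2, 36.6 and 40.3 FPKM in calcium against 35.4, 38.1 and 41.3 FPKM in control. HES1, the best-known Notch target, was at 53.2, 47.8 and 35.6 FPKM against 28.4, 19.1 and 43.1 FPKM (log2 difference 0.65 ± 0.32, limma adjusted p = 0.289). HES4 was at 208, 243 and 98.4 FPKM against 94.2, 90.9 and 104 FPKM. Calcium replicates 1 and 2 lay above all controls and calcium replicate 3 within them, and the log2 difference of 0.83 ± 0.34 did not pass the test (limma adjusted p = 0.217). Without calcium replicate 3 it was 1.22 (limma adjusted p = 0.0319).

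No Notch gene passed the test for cadmium or for the agonist GSK4716. In cadmium versus control 0.15% of all genes passed it and in GSK4716 versus control 0%, with 2404 genes (16.4%) at an unadjusted p under 0.05 in the latter. Of the 10 genes, 3 were at an unadjusted p under 0.05 for cadmium, where 25.9% of all genes were, and 4 for GSK4716. With limma-voom on recovered fragments the count of Notch genes was 0 for both as well.

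DLL4 was at 0.508, 2.30 and 2.35 FPKM in cadmium and at 1.04, 1.48 and 1.19 FPKM in GSK4716. Cadmium replicate 1 lay within the control values, the other cadmium libraries and all GSK4716 libraries above them. The log2 difference from control was 1.27 ± 0.60 for cadmium (SE, limma adjusted p = 0.234) and 1.06 ± 0.26 for GSK4716 (limma adjusted p = 0.18). Without cadmium replicate 1 the cadmium value was 1.93 (limma adjusted p = 0.0323).

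JAG1 was at 5.60, 18.3 and 8.42 FPKM in cadmium and 6.43, 4.91 and 7.64 FPKM in GSK4716. All 6 libraries were above the highest control. The log2 difference was 1.46 ± 0.43 for cadmium (SE, limma adjusted p = 0.117) and 0.86 ± 0.21 for GSK4716 (limma adjusted p = 0.183). Groups that did not overlap were found for 34.4% of the genes tested for cadmium and 22.1% for GSK4716, and for 3 of the 10 Notch genes in each. The cadmium value without replicate 1 was 1.84 (limma adjusted p = 0.046). These comparisons share the control libraries with each other and with the calcium and DES comparisons.

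NOTCH3 was at 26.5, 29.8 and 19.4 FPKM in cadmium, below every control library (log2 difference -0.62 ± 0.18, limma adjusted p = 0.118). So was JAG2, at 24.1, 25.5 and 18.7 FPKM in cadmium (log2 difference -0.47 ± 0.16, limma adjusted p = 0.138). In cadmium JAG2 made up 51.4% ± 6.31 of the ligand FPKM (SD, n = 3), JAG1 23.0% ± 9.73 and DLL4 3.88% ± 2.53. The ligand sum there was 44.8 ± 9.43 FPKM. NOTCH2 was at 20.7, 22.6 and 21.01 FPKM in GSK4716, above every control library at 14.1, 11.8 and 16.9 FPKM (log2 difference 0.60 ± 0.14, limma adjusted p = 0.176). NOTCH2 in cadmium was spread from 11.03 to 24.99 FPKM. HES1 in GSK4716 was at 41.4, 38.2 and 38.6 FPKM, within the control range, and HES4 was at 103 to 112 FPKM in cadmium and 82.2 to 113 FPKM in GSK4716.

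Calcium and cadmium were also compared directly. No Notch gene passed the limma test, against 2.44% of all genes, while 3 of the 10 were at an unadjusted p under 0.05, against 22.7%, and limma-voom called 1. Of the 10, 3 had groups that did not overlap, against 29.4%. DLL4 was 9.57 ± 3.89 FPKM (SD, n = 3) in calcium and 1.72 ± 1.05 FPKM in cadmium (log2 difference 2.58 ± 0.61, limma adjusted p = 0.0786). With all 7 groups in 1 fit the adjusted p in limma was 0.00185. DLL1 was lower in every calcium library than in every cadmium library (log2 difference -0.84 ± 0.18, limma adjusted p = 0.0698). The 2 treatments were given in different media, and the part of the medium in these differences was not tested.

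Treatment with DES came with more Delta-like ligand and less receptor mRNA. DLL4 rose 15.8-fold, DLL1 rose 2.89-fold and HES4 rose 1.64-fold, while NOTCH3 fell to 0.274 and NOTCH2 to 0.566 of the control level, on the scale of FPKM + 0.1. These 5 of the 10 genes passed the test in DES versus control, where 29.6% of all genes did (16.7% higher and 12.9% lower). The groups did not overlap for 8 of the 10, where 48.8% of all genes tested had such groups.

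DLL4 was at 7.51, 9.57 and 13.6 FPKM in DES, far above the highest control at 0.737 FPKM. This is a log2 difference of 3.98 ± 0.30 (SE, limma adjusted p = 0.000506) and it was called in all 8 alternative settings and all 6 fits without 1 library. Over those 8 settings it ranged from 2.83 to 4.23. The DLL4 values of the calcium and the DES libraries overlapped.

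DLL1 was at 16.6, 29.7 and 31.8 FPKM in DES, all above the control libraries. The log2 difference was 1.53 ± 0.26 (SE, limma adjusted p = 0.0071). FAM120B, which overlaps it, ranged from 1.76 to 6.78 FPKM over the 21 libraries. JAG1 was at 4.05, 8.35 and 8.71 FPKM, each above the highest control of 3.91 FPKM, and did not pass the test (log2 difference 0.95 ± 0.32, limma adjusted p = 0.0634). Without DES replicate 1 its log2 difference was 1.31 (limma adjusted p = 0.00645). JAG2 overlapped control, at 21.3, 24.1 and 30.4 FPKM. In DES, DLL1 made up 37.6% ± 3.90 of the ligand FPKM (SD, n = 3) and JAG2 37.5% ± 4.88, against 19.6% ± 2.07 and 71.3% ± 3.63 in control.

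NOTCH3 (ENSG00000074181, chromosome 19, 15159038 to 15200981, minus strand), the leading receptor of the line, was at 35.4, 38.1 and 41.3 FPKM in control and 8.49, 9.30 and 14.3 FPKM in DES. The highest DES library was below the lowest control library. NOTCH3 had a log2 difference of -1.87 ± 0.22 (SE, limma adjusted p = 0.00206), called in all 8 alternative settings and all 6 fits without 1 library.

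NOTCH2 (ENSG00000134250, chromosome 1, 119911553 to 120069626, minus strand) was at 14.1, 11.8 and 16.9 FPKM in control and 6.52, 10.5 and 7.31 FPKM in DES. The log2 difference was -0.82 ± 0.23 (SE, limma adjusted p = 0.0357), a call kept in 1 of 6 fits without 1 library (limma adjusted p up to 0.11). Only the fit without DES replicate 2 kept it. NOTCH2 shares near-identical sequence with the NOTCH2NL genes, of which NOTCH2NLA is in the table with 0 to 35 fragments a library, so the split of reads between them is uncertain.

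NOTCH1 (chromosome 9, 136494433 to 136545786, minus strand) was at 8.13, 8.30 and 8.12 FPKM in control and 6.22, 6.39 and 6.45 FPKM in DES. The libraries within each group lay close together and the groups did not overlap, and the log2 difference of -0.36 ± 0.14 did not pass the test (limma adjusted p = 0.0881). The 3 receptors summed to 60.7 ± 4.85 FPKM in control and 25.1 ± 3.52 FPKM in DES. NOTCH3 made up 63.1% ± 2.17 of that sum in control and 42.1% ± 7.93 in DES.

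Of the targets, HES4 rose with DES and HES1 did not pass the test. HES4 (ENSG00000188290, chromosome 1, 998962 to 1000172, minus strand), a HES-family gene, was at 94.2, 90.9 and 104 FPKM in control and 162, 155 and 157 FPKM in DES. HES4 had a log2 difference of 0.71 ± 0.15 (SE, limma adjusted p = 0.0137), kept in 3 of 6 fits without 1 library. The calls lost were those without control replicate 1, control replicate 2 or DES replicate 2, with limma adjusted p up to 0.08. HES1 (ENSG00000114315, chromosome 3, 194136145 to 194138732, plus strand) was at 28.4, 19.1 and 43.1 FPKM in control and 18.3, 17.9 and 14.02 FPKM in DES. Every DES library was below every control library, but control itself was widely spread and the test was not passed (log2 difference -0.78 ± 0.30, limma adjusted p = 0.0872). As shown above, both promoters carry the CSL core.

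HEY1 (ENSG00000164683), the HEY-family target, stayed near the floor. It was at 0 to 0.146 FPKM in control, 0 to 0.0691 FPKM in calcium and 0.109 to 0.392 FPKM in DES. The highest value, 1.54 FPKM from 82 fragments, came from cadmium replicate 3, against 0.034 and 0.319 FPKM in the other cadmium libraries. All other libraries of the series had at most 32 HEY1 fragments. No fold change is given for it because several libraries were at or under 3 fragments.

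**Figure D3:**
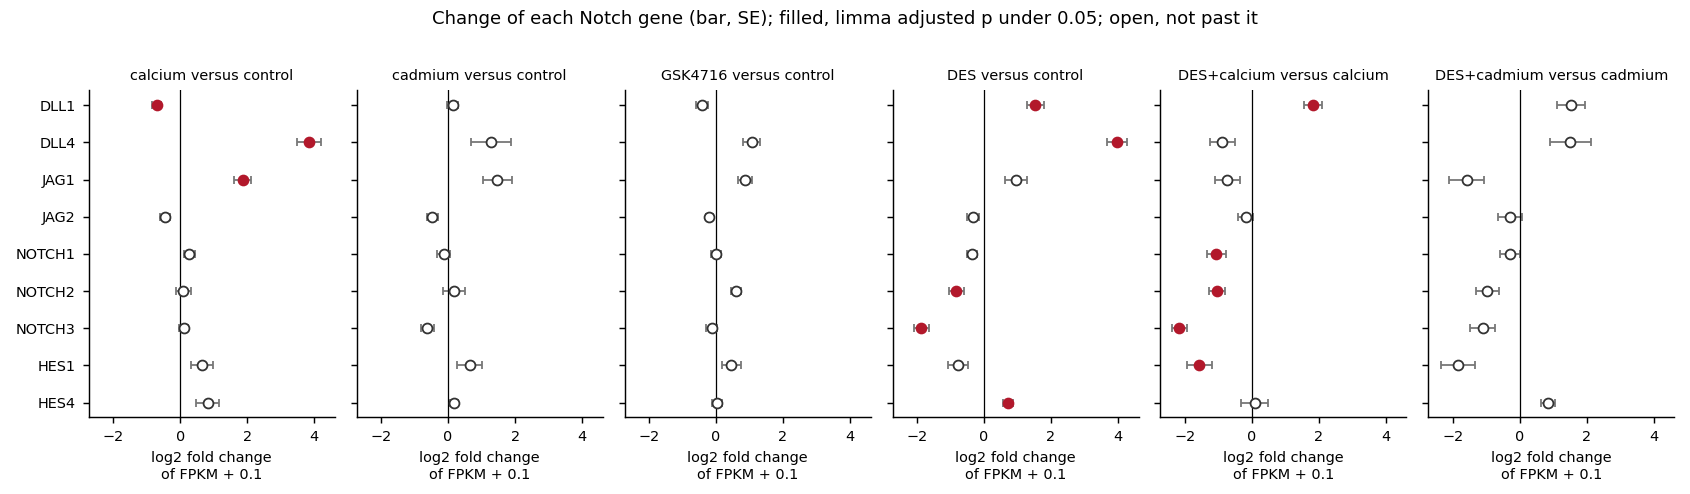
Log2 fold change of FPKM + 0.1 (x axis) with its SE for the 9 Notch genes tested (rows) in 6 comparisons (panels), with filled points for limma adjusted p under 0.05. The NOTCH3 value is -1.87 in DES versus control and -2.17 in DES+calcium versus calcium, and 0.11 in calcium versus control.

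The combined treatments asked whether the metals act when DES is present. Adding calcium to DES left every Notch gene short of the limma test, as did adding cadmium. In these comparisons 0.136% and 0.266% of all genes passed it. At an unadjusted p under 0.05 was 1 of the 10 genes in each, against 13.2% and 10.4% of all genes, and limma-voom called 0 in each. DLL4 was at 6.66, 3.40 and 5.10 FPKM in DES+calcium and 2.87, 4.92 and 5.44 FPKM in DES+cadmium. Both sets of libraries lay below all 3 DES libraries and above all 3 controls. The log2 difference from DES was -1.01 ± 0.32 for calcium (SE, limma adjusted p = 0.292) and -1.20 ± 0.35 for cadmium (limma adjusted p = 0.292). Groups that did not overlap were found for 2 of the 10 genes in each, and for 19.9% and 16.2% of all genes.

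The effect of calcium on DLL4 thus differed with and without DES, and this difference was tested as an interaction. Calcium gave a log2 difference of 3.85 without DES and -1.01 with DES, an interaction of -4.86 ± 0.49 (SE, limma adjusted p = 0.00233). It was called in all 8 alternative settings, from -5.13 to -3.60, and in all 12 fits without 1 library, from -5.16 to -4.56. DLL4 was the only 1 of the 10 Notch genes called for this term in the main test, where 3.63% of all genes were called (1.25% with a positive and 2.38% with a negative sign). The interaction shares the control, calcium and DES libraries with the comparisons above and is not a separate line of evidence.

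JAG1 was at 5.66, 13.3 and 5.72 FPKM in DES+calcium, and its calcium by DES interaction was -1.68 ± 0.53 (SE, limma adjusted p = 0.103). It passed the test only in the fits without DES replicate 1 or DES+calcium replicate 2. In DES+cadmium JAG1 was at 2.17, 2.61 and 5.27 FPKM, near control and below every cadmium library. Its cadmium by DES interaction was -2.54 ± 0.65 (limma adjusted p = 0.0798) and that of DLL4 -2.47 ± 0.71 (limma adjusted p = 0.104). For this term limma and limma-voom each called 0 of the 10 genes, limma called 1.18% of all genes, and 2 of the 10 were at an unadjusted p under 0.05, against 18.5%. Both values passed the test in 2 of 8 alternative settings, with all 7 groups in 1 fit and with the replicate number as a block, and in the fit without cadmium replicate 1.

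**Figure D4:**
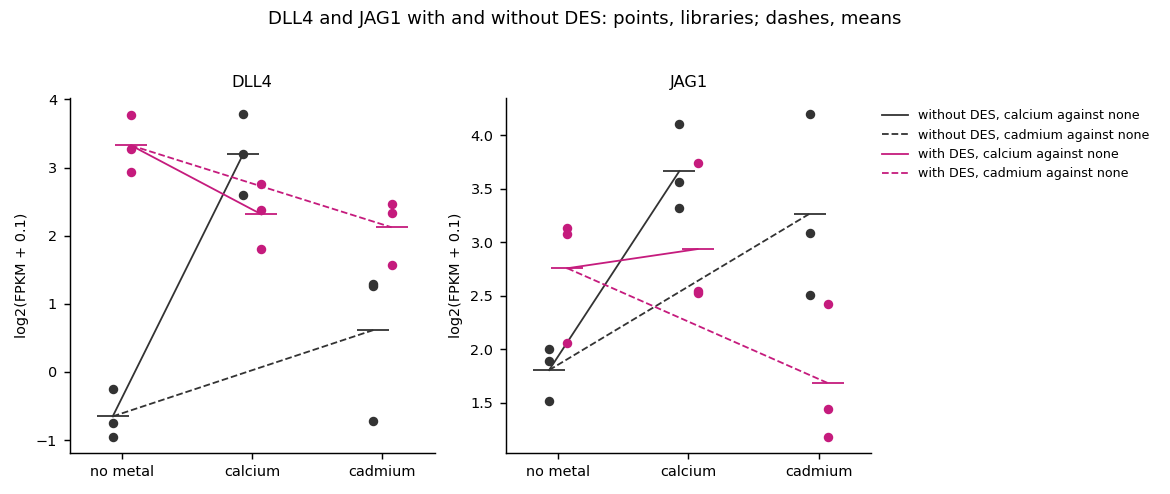
Log2(FPKM + 0.1) of DLL4 (left) and JAG1 (right) with no metal, calcium or cadmium (x axis), without DES (dark) and with DES (pink), with points for libraries and dashes for means of 3. For DLL4 the calcium line rises by 3.85 without DES and has a difference of -1.01 with DES.

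The effect of DES in metal-treated cells was read from DES+calcium versus calcium and DES+cadmium versus cadmium. In the first, DLL1 rose 3.51-fold and the 3 receptors and HES1 fell. These 5 of the 10 genes passed the test, where 35.1% of all genes did (18.5% higher and 16.5% lower), and 5 of the 9 tested had groups that did not overlap, where 50.8% did. HEY1, which was not tested, did not overlap either, at 0.152 to 0.458 FPKM in DES+calcium and 0 to 0.0691 FPKM in calcium.

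DLL1 was at 28.1, 16.5 and 13.9 FPKM in DES+calcium against 5.53, 5.27 and 4.96 FPKM in calcium (log2 difference 1.81 ± 0.27, limma adjusted p = 0.00469). NOTCH3 was at 9.29, 6.76 and 11.8 FPKM against 47.2, 36.6 and 40.3 FPKM (-2.17 ± 0.23, limma adjusted p = 0.00209). Both calls held in all 8 alternative settings and all 6 fits without 1 library. NOTCH2 was at 7.69, 7.99 and 6.25 FPKM against 16.6, 11.2 and 18.5 FPKM (-1.04 ± 0.23, limma adjusted p = 0.0149).

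NOTCH1 was at 5.77, 5.66 and 3.12 FPKM in DES+calcium against 10.6, 11.4 and 8.05 FPKM in calcium (log2 difference -1.07 ± 0.28, limma adjusted p = 0.0282). An antisense transcript, AL592301.1, overlaps NOTCH1 over 955 bases and reached 23.2 FPKM in 1 library, so some reads may be shared. HES1 was at 25.6, 14.9 and 8.91 FPKM against 53.2, 47.8 and 35.6 FPKM (-1.57 ± 0.38, limma adjusted p = 0.0209). The call of NOTCH1 was lost without calcium replicate 1 or 2, that of NOTCH2 without calcium replicate 1, and that of HES1 without calcium replicate 1 or 2 or DES+calcium replicate 2. HES4 overlapped, at 203, 241 and 120 FPKM in DES+calcium.

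In DES+cadmium versus cadmium none of the 10 genes passed the limma test, while 9.89% of all genes did. At an unadjusted p under 0.05 were 7 of the 10, against 32.6% of all genes, and the same number had groups that did not overlap, against 40% of all genes. With all 7 groups in 1 fit those 7 were called, and with limma-voom on recovered fragments 2 were. HES1 was at 26.6, 9.02 and 8.04 FPKM in DES+cadmium against 44.5, 64.5 and 31.7 FPKM in cadmium (log2 difference -1.84 ± 0.51, limma adjusted p = 0.0649). DLL1 was at 14.8, 30.7 and 45.7 FPKM against 11.1, 9.36 and 8.11 FPKM (1.53 ± 0.42, limma adjusted p = 0.0632). Replicate 1 of DES+cadmium, the library with the fewest genes detected, was the nearest to cadmium for both, and without it both passed (limma adjusted p = 0.04 for each).

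NOTCH3 was at 6.97, 17.7 and 12.2 FPKM in DES+cadmium against 26.5, 29.8 and 19.4 FPKM in cadmium (log2 difference -1.11 ± 0.37, limma adjusted p = 0.0999). HES4 was at 181, 211 and 187 FPKM against 103, 112 and 110 FPKM (0.83 ± 0.21, limma adjusted p = 0.0549). For these genes the groups did not overlap.

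Ordered by their means, the 7 groups split by DES for 5 of the 10 genes, where 42.7% of all genes tested had such a split (22.1% with the DES groups highest and 20.6% with them lowest), a share near that of the Notch genes. The 3 groups with DES held the 3 highest places for DLL1, with no overlap between DES+calcium and the next group, and the 3 lowest for NOTCH1, NOTCH2, NOTCH3 and HES1. Every library with DES, alone or with a metal, lay above every library without it for DLL1 and below for NOTCH2 and NOTCH3, which is 3 of the 10 genes, where 8.73% of all genes tested were split in 1 of these ways. For HES1 the libraries overlapped, since 1 library each of DES+calcium (25.6 FPKM) and DES+cadmium (26.6 FPKM) lay within the control range, and for NOTCH1 they overlapped as well. The other 5 genes had no such split. HES4 was highest in DES+cadmium and DES+calcium, and calcium came next, overlapping DES. DLL4 was highest in DES and calcium, which overlapped, and lowest in control, which did not overlap GSK4716. JAG1 was highest in calcium and cadmium, and JAG2 highest in control, with every neighbour in the JAG2 order overlapping.

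The rest of the pathway was followed with 53 further genes in 5 lists drawn up by function. Of these, 41 passed the filter on low values. In calcium versus control 2 were called (4.9% of the 41, beside 7.12% of all genes tested), both lower. In cadmium versus control and in GSK4716 versus control limma called 0, beside 0.15% and 0% of all genes. In each, 7 of the 41 were at an unadjusted p under 0.05 (17.1%), beside 25.9% and 16.4% of all genes. In DES versus control 13 were called (31.7% of the 41, beside 29.6% of all genes), of which 5 were higher and 8 lower. The median log2 difference of the 41 genes for DES was -0.43, beside 0.05 over all genes tested. In DES+calcium versus calcium 16 were called (39% of the 41, beside 35.1%), 5 higher and 11 lower, and in DES+cadmium versus cadmium 1 (2.4%, beside 9.89%).

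Among other HES and HEY genes and direct targets, HES7 stood out in DES. HES7 (ENSG00000179111, chromosome 17, 8120590 to 8124092, minus strand) encodes a HES repressor best known from the segmentation clock of the embryo. It was at 0.348, 0.963 and 0.551 FPKM in control and 23.4, 31.5 and 58.2 FPKM in DES (log2 difference 5.70 ± 0.42, limma adjusted p = 0.000476). The groups did not overlap, and the call held in all 8 alternative settings and all 6 fits without 1 library. Over those 8 settings the log2 difference ranged from 4.49 to 5.98. HES7 was also high in DES+calcium, at 16.7, 14.5 and 19.6 FPKM, and in DES+cadmium, at 12.0, 23.4 and 35.0 FPKM. It rose over calcium (3.35 ± 0.21, limma adjusted p = 0.00167) and over cadmium (4.17 ± 0.52, limma adjusted p = 0.0255), and its calcium by DES interaction was -2.35 ± 0.50 (limma adjusted p = 0.031). The call over cadmium was kept in 2 of 6 fits without 1 library (lost without any cadmium library or DES+cadmium replicate 3) and that of the interaction in 5 of 12.

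NRARP, a direct Notch target that feeds back on the nuclear complex, fell with calcium. It was at 37.0, 33.1 and 24.0 FPKM in control and 15.9, 16.8 and 10.8 FPKM in calcium (log2 difference -1.11 ± 0.24, limma adjusted p = 0.0487). The call was lost in 5 of 6 fits without 1 library and kept without control replicate 3. NRARP was at 24.5, 22.1 and 21.01 FPKM in DES. HES6, a HES relative that opposes HES1, was higher in DES (0.86 ± 0.24, limma adjusted p = 0.0364), a call kept in 2 of 6 fits without 1 library. The other targets HES2, HES3, HES5, HEY2 and HEYL had means of at most 0.0295 FPKM over the 21 libraries.

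**Figure D5:**
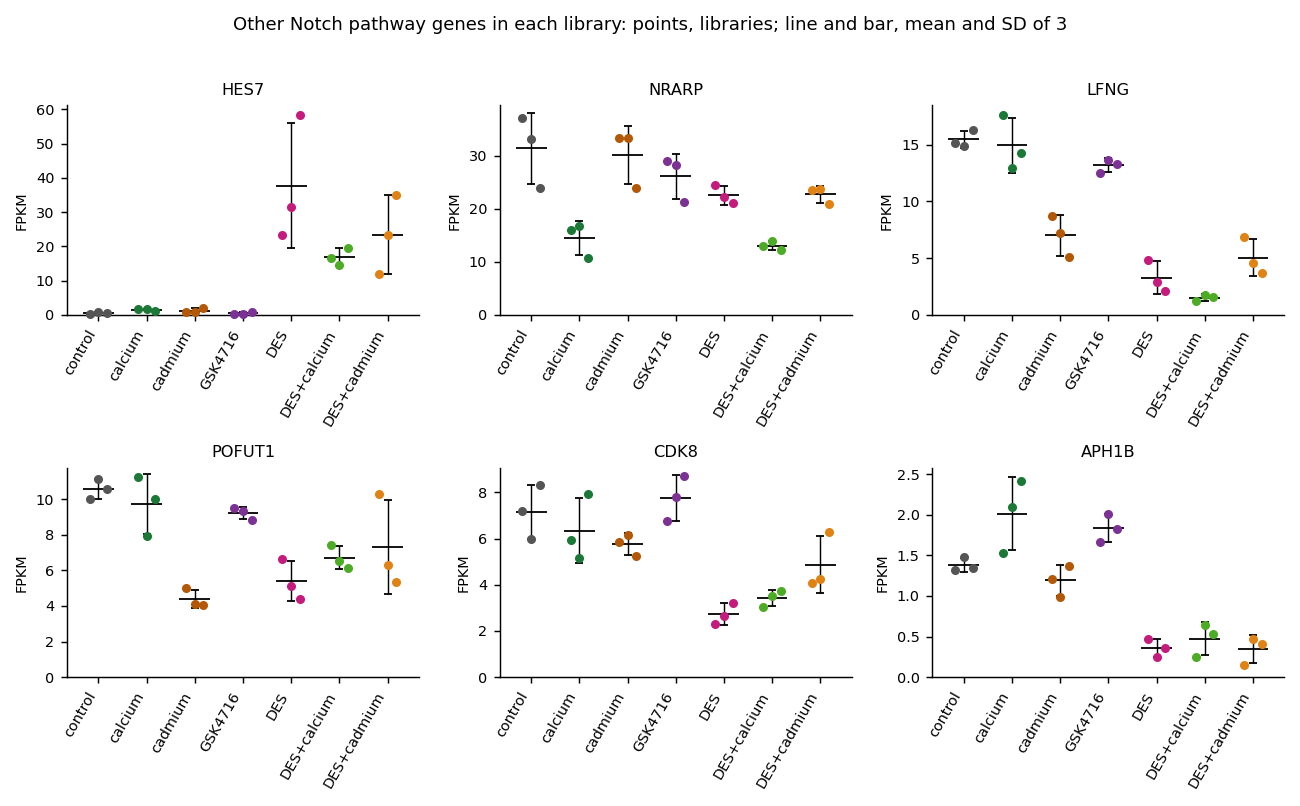
FPKM (y axis, linear from 0, own scale per gene) of 6 pathway genes outside the 10 in the 7 groups (x axis), with 1 point per library and the mean ± SD of 3. HES7 is at 0.348 to 0.963 FPKM in control and 23.4 to 58.2 FPKM in DES, and LFNG at 14.9 to 16.3 FPKM in control and 2.08 to 4.85 FPKM in DES.

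Of the 16 genes for glycosylation and trafficking, 3 fell and 2 rose with DES, which is 38.5% of the 13 tested, beside 29.6% of all genes. LFNG, the lunatic fringe enzyme, was at 15.2, 14.9 and 16.3 FPKM in control and 4.85, 2.92 and 2.08 FPKM in DES (log2 difference -2.28 ± 0.29, limma adjusted p = 0.00289). POFUT1, which puts the O-fucose on the receptor that fringe extends, was at 9.99, 11.1 and 10.6 FPKM in control and 6.63, 5.14 and 4.40 FPKM in DES (-0.98 ± 0.19, limma adjusted p = 0.0107). Both calls were kept in all fits without 1 library. MIB1, the ubiquitin ligase that lets ligands be internalised, had a log2 difference of -1.05 ± 0.32 (limma adjusted p = 0.0468), kept in 2 of 6 such fits. LFNG was also lower in DES+calcium, at 1.19, 1.80 and 1.61 FPKM, than in calcium (-3.21 ± 0.22, limma adjusted p = 0.00167), and its calcium by DES interaction did not pass the test (-0.93 ± 0.38, limma adjusted p = 0.203). In cadmium LFNG was at 8.69, 7.25 and 5.09 FPKM, below every control library. It overlapped cadmium in DES+cadmium, at 6.82, 4.58 and 3.72 FPKM. Neither cadmium versus control nor DES+cadmium versus cadmium was called for LFNG. POFUT1 was lower in cadmium, at 4.99, 4.10 and 4.07 FPKM, than in calcium (calcium minus cadmium 1.12 ± 0.20, limma adjusted p = 0.0479), a call lost in each of the 6 fits without 1 library. Its cadmium libraries also lay below every control library. With DES the direction was opposite in cadmium cells, as every DES+cadmium library (10.3, 6.27 and 5.34 FPKM) lay above every cadmium library. Neither of these differences was called.

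Of the 9 protease and gamma-secretase genes, 1 was called in DES versus control (11.1%, beside 29.6% of all genes), APH1B, a gamma-secretase subunit. It was at 1.32, 1.48 and 1.34 FPKM in control and 0.467, 0.253 and 0.363 FPKM in DES (log2 difference -1.71 ± 0.32, limma adjusted p = 0.00943). In DES+calcium versus calcium 6 of the 9 were called, 5 lower and 1 higher, where 35.1% of all genes were called. APH1B was again lower (-1.93 ± 0.40, limma adjusted p = 0.0129). FURIN, which cleaves the receptor on its way to the surface, was lower as well (-0.996 ± 0.16, limma adjusted p = 0.00572). The gene that was higher was NCSTN, a gamma-secretase subunit (0.68 ± 0.14, limma adjusted p = 0.0131). FURIN went the other way in cadmium cells, without being called. Each DES+cadmium library (3.56, 6.01 and 4.44 FPKM) was above every cadmium library (2.52, 1.86 and 3.46 FPKM).

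Of the 14 genes of the nuclear complex, 4 fell and 1 rose with DES, which is 38.5% of the 13 tested, beside 29.6% of all genes. CDK8, a kinase that marks the Notch intracellular domain for turnover, had a log2 difference of -1.36 ± 0.21 (limma adjusted p = 0.00522). RBPJ, the DNA-binding partner itself, was called in none of the 11 comparisons.

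For each Notch gene the genes with the most similar profile of log2(FPKM + 0.1) over the 21 libraries were listed as a description. The libraries of a group share a treatment, so these values carry no p. NOTCH3 was close to ATP13A2 (Pearson r = 0.952) and MLXIP (0.949). NOTCH2 was most like KIAA1671 (r = 0.945), and DLL4 most like AC104695.3 (r = 0.926), ATG9B (0.913) and TNFAIP3 (0.908). HES4 was most like CLTB (r = 0.915), DLL1 most like MAPT-IT1 (r = 0.915) and HES1 most like ATMIN (r = 0.895). JAG1 was most like RAP2B (r = 0.888), JAG2 most like MLLT6 (r = 0.879) and NOTCH1 most like NIPA1 (r = 0.845). HEY1 was most like HSPA4L (r = 0.906). Among the 10 genes the closest pair was NOTCH2 and NOTCH3 (r = 0.773), and DLL1 ran opposite to HES1 (r = -0.77) and NOTCH3 (r = -0.755).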

How the data were processed

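The deposited table held FPKM per gene, which the authors made from reads aligned with HISAT2 2.0.5 to GRCh38.p14 and counted with featureCounts 1.5.0-p3, as named in the submitters' processing notes. Libraries were paired-end poly-A RNA-seq. FPKM values of all genes were whole multiples of 1 fragment (100% of values, within 0.01 of a fragment, or within a share of 1e-06 of the value above 10000 fragments), so fragments per gene and library were recovered, with 14435925 to 28424805 fragments on genes a library. The sources describe the library kit as either strand-specific or not. No 2 libraries had more than 4.97% of genes with equal fragments.

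All genes with a mean of at least 0.5 FPKM over the 21 libraries (14686) were tested on log2(FPKM + 0.1) with limma 3.58.1 (lmFit, eBayes with trend) in R 4.3.3, fitting only the groups compared, with no covariate. Fold changes are on that scale and understate the change of low genes. The two-sided p-values were adjusted by Benjamini-Hochberg over all genes tested and called under 0.05. With 3 libraries a group, exact permutation reaches no p below 0.1, so it was not used. The interaction is the metal effect with DES minus that without. HEY1, under the filter, was read from the unfiltered fit. The script was tested on simulated data. Alternatives were a pseudocount of 1, no filter, a filter at 2 FPKM, median-ratio scaling, scaling by total fragments, all 7 groups in 1 fit, the replicate number as a block, limma-voom on recovered fragments, and leaving out each library.

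Groups came from the sample labels. Replicate numbers are shared between groups, and nothing says that they pair the samples. Deviations of same-numbered libraries from their group means had r above 0.1 in all 3 pairs only for DES+calcium versus DES (0.132, 0.103 and 0.28) and DES+cadmium versus DES (0.472, 0.121 and 0.313), where the pairing therefore comes from the data, and the block changed no call there. The members and the pathway lists were chosen with earlier results of these data known. Pathway genes were named where called, up to 5 a comparison by size of change, as were NOTCH2NL genes and the most similar genes by Pearson r. Some genes that this rule names are not reported here.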

Additional observations from a re-analysis of the deposited data

Results flagged for a closer look

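DLL4 responded differently to calcium with and without DES. The interaction was -4.86 on the log2 scale (limma adjusted p = 0.00233, n = 3 libraries in each of 4 groups). DLL4 was higher in 3 of 3 calcium libraries than in any control library and lower in 3 of 3 DES+calcium libraries than in any DES library. The medium of calcium and the earlier start of DES move with these groups, and their part in the result was not tested.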

How the results depend on the processing

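Over the Notch genes with a difference large enough to follow, 436 of 472 values under other settings kept their direction and side of the threshold, 13 lost and 23 gained a call, and none of those 472 turned direction. Of 408 values without 1 library, 371 were the same, 25 lost and 12 gained a call and none turned direction. HEY1, near the floor and given no fold change, is in neither count. For the pathway genes called, 43 of 280 values under other settings and 80 of 216 without 1 library lost the call.

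The counts of Notch genes called moved as follows. With no filter on low values, calcium versus control gave 0 in place of 3 and DES+calcium versus calcium 2 in place of 5, with 45127 genes in the adjustment. DLL1 in calcium versus control also lost its call with all 7 groups in 1 fit and with the replicate block. DES versus control gave 5, and from 4 to 7 under the 8 other settings. There DLL1 lost its call with no filter, NOTCH2 with no filter and with the block, and HES4 with all 7 groups in 1 fit and with the block. JAG1 gained a call with the block and with limma-voom, NOTCH1 with no filter and with scaling by total fragments, and HES1 with that scaling. DES+cadmium versus cadmium gave 0 in the main test, 2 with a filter at 2 FPKM, 1 with scaling by total fragments, 7 with all 7 groups in 1 fit and 2 with limma-voom on recovered fragments. Calcium versus cadmium gave 0, and 1 with all 7 groups in 1 fit and with limma-voom. The cadmium by DES interaction gave 0, and 2 with all 7 groups in 1 fit. The cause of these moves was not tested.

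Without 1 library the count ranged from 0 to 3 for calcium versus control (0 without control replicate 1 or 2), from 0 to 2 for cadmium versus control (2 without cadmium replicate 1), from 3 to 5 for DES versus control, from 2 to 5 for DES+calcium versus calcium (2 without calcium replicate 1), from 0 to 2 for DES+cadmium versus cadmium (2 without DES+cadmium replicate 1), from 1 to 2 for the calcium by DES interaction and from 0 to 2 for the cadmium by DES interaction (2 without cadmium replicate 1). It was 0 throughout for GSK4716 versus control, DES+calcium versus DES, DES+cadmium versus DES and calcium versus cadmium.

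With the replicate block the counts were 2 for calcium versus control, 4 for DES versus control, 5 for DES+calcium versus calcium, 1 for the calcium by DES interaction, 2 for the cadmium by DES interaction and 0 for the other 6 comparisons. Outside the comparisons of combined treatment with DES, no comparison had r above 0.1 in every pair (r from -0.158 to 0.266). In cadmium versus control, DES+calcium versus calcium and calcium versus cadmium, r was above 0 in every pair (0.012 to 0.159). In the others at least 1 pair was below 0, and these values do not settle whether the samples share more than a number. Scaling by total fragments moved the median of all genes to between -0.39 (DES+cadmium versus cadmium) and -0.01 (cadmium versus control) and to -0.13 for DES versus control. It turned no direction among the Notch differences large enough to follow, and smaller ones were not followed. Depth limits HEY1, with 0 to 82 fragments a library, and DLL4 in control, with 42 to 76.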
